A study of Mus musculus with 14 samples.

Results

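Germinal centre B cells of mice with floxed Crebbp on both chromosomes (KO, 5 arrays) were compared with those of mice with none (WT, 4 arrays), gene by gene, over genes of many functions. These 9 arrays were chosen by the genotype in the labels from 14 in the series. The 5 arrays of mice with a single floxed copy (HET) entered the fit too. They add to its estimates of spread and of the difference between the sexes, so they also bear on the fitted changes. Each array held RNA of 1 mouse on the Affymetrix Mouse Genome 430 2.0 platform. WT mice were Crebbp+/+, HET mice Crebbp fl/+ and KO mice Crebbp fl/fl, and every mouse, WT included, also carried Cg1-Cre. All were C57BL/6x129Sv mice 8 to 12 weeks old, given sheep red blood cells as antigen on day 0 and again on day 5, and killed on day 12. Spleen cells were enriched for B cells and sorted as B220+CD95+PNA+. Cg1-Cre recombines in B cells activated to transcribe the gamma 1 constant region, so KO names the floxed alleles of the mouse and not the share of sorted cells that had lost the gene. There were 1 male in 4 WT mice, 2 in 5 HET mice and 3 in 5 KO mice, and sex was a term of the fit.

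CREBBP is a lysine acetyltransferase that DNA-bound transcription factors recruit to enhancers and promoters, where it acetylates histones and other proteins. Its name comes from CREB, a factor activated by cyclic AMP and calcium signals, and the gene is often mutated in lymphomas that arise from germinal centre B cells. In the germinal centre these cells move between a zone of division and a zone of selection, which takes migration, antigen receptor signals, antigen presentation and rapid changes of metabolism.

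Each gene was represented by its brightest probe set that names only that gene, by the mean over the 14 arrays. Values are log2 intensities, and a change is the fitted log2 difference KO minus WT with its standard error (SE). Genes were tested where their mean over all arrays was above 6.43, the median over probe sets other than controls, which left 10225. A gene was called at a Benjamini-Hochberg adjusted p of limma under 0.05 over those 10225. To show which calls are lost with 1 array fewer, the fit was run again 9 times, each time without 1 KO or WT array, and "in all 9 fits" below refers to these. A call near the threshold can be lost in this way without resting on any single array. Across the tested genes the median SE was 0.10.

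The mean level of 8 B lineage markers ranged from 12.18 to 12.26 in WT and from 12.08 to 12.20 in KO, and that of germinal centre markers from 11.85 to 11.94 and from 11.57 to 11.95. T cell markers averaged 5.93 to 6.25 in WT and 5.89 to 6.46 in KO, with 4 of 12 above the 6.43 level by their mean over all arrays. Those 4 were Cd247, Lat, Cd8a and Cd3e, while Cd3d, Cd3g and Cd4 were among the 8 below it, although Cd3d reached 6.73 in a KO array. Macrophage markers averaged 5.77 to 6.42 and 5.88 to 6.77, neutrophil markers 5.06 to 5.71 and 5.06 to 5.52, and stromal and endothelial markers 5.77 to 6.05 and 5.73 to 5.93. Red cell markers averaged 5.25 to 5.53 and 5.31 to 5.59. In bulk RNA of this kind, fewer cells of a type and less RNA per cell cannot be told apart. Over the tested genes KO 3 correlated least with the other arrays, with a median of 0.979 against 0.984 to 0.990, and it was the highest KO array for 55 of the 120 genes called higher.

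**Figure D1:**
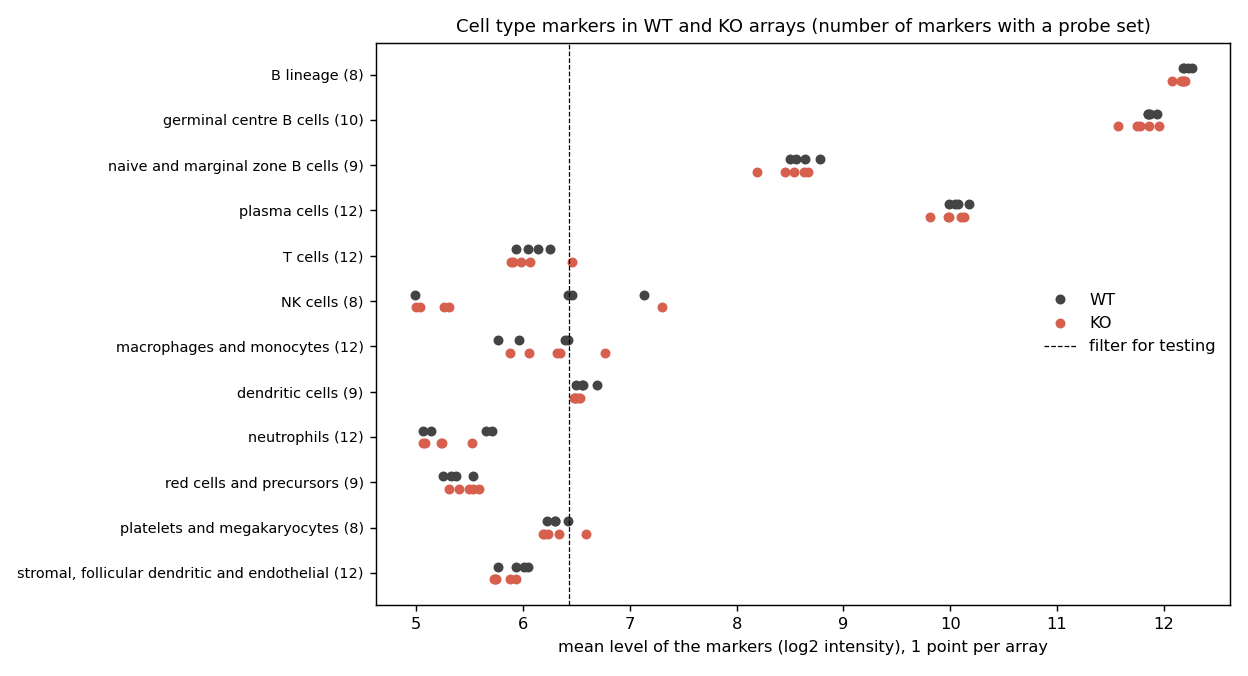
Mean log2 intensity (horizontal axis) of 12 lists of cell type markers in each WT and KO array, 1 point per mouse, with the number of markers in parentheses and a dashed line at the filter of 6.43. B lineage and germinal centre markers lay far above those of T, NK, myeloid, red and stromal cells in every array, and NK cell markers spread widely within both WT (4.99 to 7.13) and KO (5.00 to 7.30).

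Crebbp itself was lower on the probe set that stands for it. It read 12.42, 12.40, 12.36 and 12.44 in the WT arrays and 12.12, 12.05, 11.71, 12.15 and 12.18 in the KO arrays, so KO values were under all WT values, with KO 3 lowest. The change was -0.41 (SE 0.09, adjusted p = 0.0372), and the call held in 2 of 9 fits, not without any 1 WT array, KO 1, KO 2 or KO 3 (adjusted p up to 0.0927). A dimmer probe set of the gene changed by -0.86 (SE 0.10), from 10.29 ± 0.08 (SD, n = 4) in WT to 9.42 in KO, and passed over all non-control probe sets with adjusted p = 0.00168. In that wider fit the probe set that stands for the gene did not pass (adjusted p = 0.136). Nor did its remaining probe sets, at -0.47 (adjusted p = 0.0954) and -0.30 (adjusted p = 0.703), and on the last KO and WT overlapped. Where these probe sets lie relative to the floxed part was not analysed here, so the size of the change is no measure of the share of cells that lost the gene. Ep300, the gene of the closest relative of CREBBP, differed by -0.01 (SE 0.13, adjusted p = 0.991).

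Of the 10225 genes tested, 120 were called higher in KO (1.17%) and 129 lower (1.26%), together 249 (2.44%). Counts of called list members below are to be read against these shares. The median change was 0.67 among the higher genes and -0.52 among the lower genes. At least a 2-fold change was reached by 18 higher genes and 7 lower genes. KO and WT arrays did not overlap for 112 genes called higher and 121 called lower, against 6.51% of all tested genes (2.87% with KO above and 3.65% with KO below). Called genes were picked by these same arrays, so that separation largely follows from the choice and is no added support. The higher genes were dimmer in WT, with a median level of 8.19, than the lower genes, at 9.57, while all tested genes had a WT median of 9.85. In KO the medians were 8.91 and 8.97. For 9 higher genes the WT mean lay below the 6.43 level, so these passed the filter through their level in other groups. Among them were Fmn2, Spry2, Eno2, Armcx4, Gpx7 and Cdkn2a. For 7 lower genes, Nr4a1, Fam167a, Rnf122, Tktl1 and Gch1 among them, the KO mean lay below that level. For 97 called genes another probe set above that level existed, and 139 of these 142 probe sets changed in the same direction, 98 of them with an unadjusted p under 0.05. Of the 249 genes, 88 were called in all 9 fits, 56 of them higher and 32 lower. The count of lower genes moved most, to 65, 70, 72 and 42 without WT 1, WT 2, WT 3 and WT 4 in turn and to 75 and 78 without KO 2 and KO 4, while that of higher genes went to 74 without WT 3. With both KO 3 and WT 4 left out, an alternative chosen after seeing the data, 47 higher and 28 lower genes were called. Of the 249 genes 63 were still called, and all 249 kept their sign. They were chosen for their change in these same arrays, so a kept sign adds little.

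**Figure D2:**
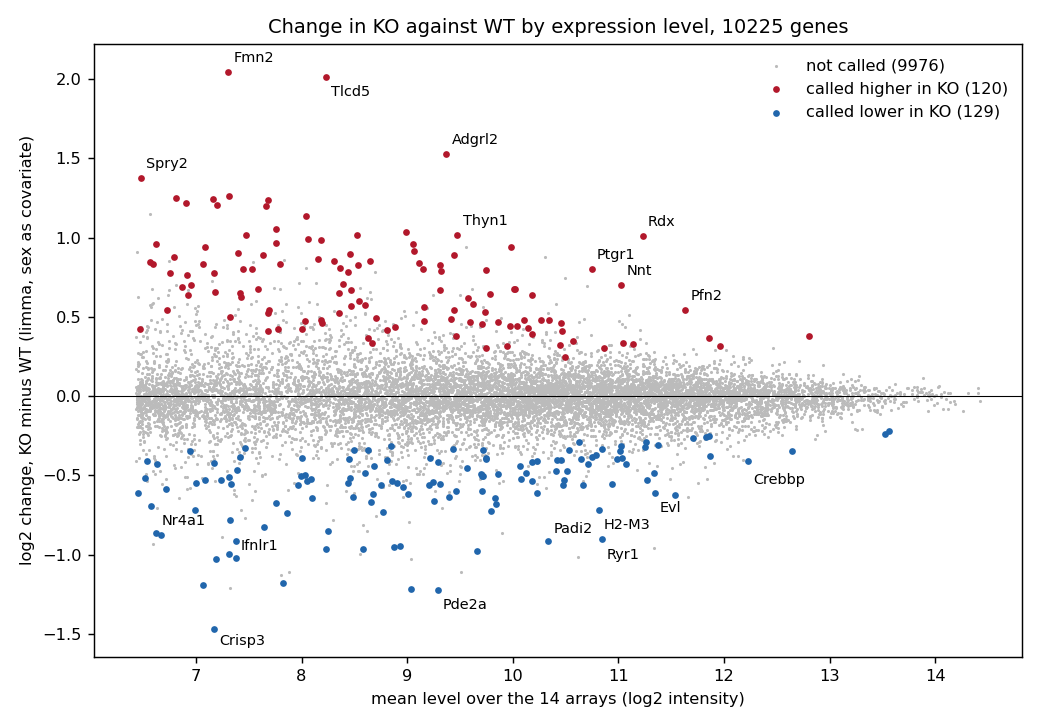
Log2 change KO minus WT (vertical axis) against mean log2 intensity over 14 arrays (horizontal axis) for the 10225 tested genes, with called genes in colour (120 higher, 129 lower). Called genes lay on both sides of 0, and the points farthest from 0 were higher genes such as Fmn2 at 2.05.

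Genes that shape actin filaments and tie them to the membrane changed in both directions. Fmn2, the gene with the largest fitted change, encodes a formin, which nucleates straight actin filaments. It read 5.96, 5.80, 6.36 and 6.55 in the WT arrays and 8.12, 8.18, 8.61, 8.27 and 7.94 in the KO arrays. All KO arrays lay above all WT arrays, and in WT the gene was near or below the 6.43 level. The change was 2.05 (SE 0.20, adjusted p = 0.000345), called in all 9 fits. With a WT mean of 6.17 under that level, its size rests on a dim WT value. A pair of dimmer Fmn2 probe sets rose by 1.53 and 1.59.

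Rdx encodes radixin, an ERM protein that links the membrane to cortical actin. It read 10.87, 10.82, 10.36 and 10.81 in the WT arrays and 11.53, 11.99, 11.39, 11.73 and 12.23 in the KO arrays, with no overlap and WT 3 apart below the other WT arrays. The change was 1.01 (SE 0.16, adjusted p = 0.00422), and the gene's other probe sets above the filter rose by 0.82 and 1.00. Vcl, the gene of vinculin, which links integrin contacts to actin, read 8.64, 8.75, 8.60 and 8.80 in the WT arrays and 9.62, 9.46, 9.84, 9.15 and 9.80 in the KO arrays. The groups did not overlap, and the change was 0.84 (SE 0.12, adjusted p = 0.00355), although a probe set of Vcl below the filter differed by -0.08. Utrn, the gene of utrophin, rose by 0.82 (adjusted p = 0.0117) and Epb41l5, a FERM domain protein, by 0.80 (adjusted p = 0.00334).

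Further actin-binding genes that rose were Raph1, the gene of lamellipodin, by 0.94 (adjusted p = 0.000848), Ccdc88a, the gene of girdin, by 0.96 (adjusted p = 0.004), and Pdlim1, a PDZ and LIM domain adaptor, by 0.97 (adjusted p = 0.00526). Rdx, Vcl, Utrn, Epb41l5, Raph1, Ccdc88a and Pdlim1 were each called in all 9 fits. Pfn2, a profilin that delivers actin monomers, rose by 0.55 (adjusted p = 0.0126) and was called in 8 of 9 fits, not without WT 4 (adjusted p up to 0.0746). The myosin light chain gene Myl4 rose by 0.38 (adjusted p = 0.0216), called in 7 of 9 fits, not without WT 3 or WT 4 (adjusted p up to 0.0842). Marcks, a membrane-bound actin regulator, rose by 0.48 (adjusted p = 0.011), called in 8 of 9 fits, not without WT 4 (adjusted p up to 0.069). The actin nucleator Jmy rose by 0.44 (adjusted p = 0.0482) but was called in 0 of 9 fits (adjusted p up to 0.138).

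The lower genes of this kind include several expressed mainly in blood cells. Evl encodes an ENA/VASP protein that speeds filament growth. It read 11.47, 11.57, 11.72 and 11.83 in the WT arrays and 10.88, 11.15, 10.90, 11.22 and 11.09 in the KO arrays, all KO values being under all WT values. The change was -0.61 (SE 0.11, adjusted p = 0.00805), called in 8 of 9 fits, not without WT 4 (adjusted p up to 0.0586), and its other probe sets above the filter changed by -0.53, -0.27 and -0.12. Myo1f, an unconventional myosin of leucocytes, fell by 0.51 (adjusted p = 0.0254), called in 5 of 9 fits, not without WT 3, WT 4, KO 2 or KO 4 (adjusted p up to 0.125). Hcls1, a cortactin relative of blood cells, fell by 0.34 (adjusted p = 0.0254), called in 4 of 9 fits, not without WT 1, WT 3, WT 4, KO 2 or KO 4 (adjusted p up to 0.103). The changes of Pdlim2 at -0.60 (adjusted p = 0.0145), Flna (filamin A) at -0.41 (adjusted p = 0.0444), Abi3 at -0.34 (adjusted p = 0.046) and Syne1 (nesprin 1, which ties the nucleus to actin) at -0.54 (adjusted p = 0.0156) were called too. Pdlim2 was called in 8 of 9 fits, not without WT 4 (adjusted p up to 0.0868), and Syne1 in 8 of 9 fits, not without WT 4 (adjusted p up to 0.0992). Flna was called in 1 of 9 fits, not without any 1 WT array, KO 1, KO 2, KO 4 or KO 5 (adjusted p up to 0.203) and Abi3 in 2 of 9 fits, not without any 1 WT array, KO 1, KO 2 or KO 4 (adjusted p up to 0.205). Bin1, which bends membranes, fell by 0.53 (adjusted p = 0.0147), called in 8 of 9 fits, not without WT 4 (adjusted p up to 0.0905).

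Over the list of actin nucleators and regulators, 3 of 38 tested members were called higher and 1 lower, against 2.44% of all tested genes, and the list's median change was -0.022 against -0.0027 for all tested genes. The genes Vcl, Utrn, Epb41l5, Marcks, Jmy, Hcls1, Pdlim2, Flna, Abi3, Syne1 and Bin1 were picked after their values were seen, so they are examples and not a count. Across all tested genes 49% of changes were positive and 51% negative.

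Inhibitors that sit between receptor tyrosine kinases and ERK were among the higher genes. Spry2 (Sprouty 2) is induced by ERK activity and dampens signalling from growth factor receptors. It read 5.72, 5.80, 6.03 and 6.03 in the WT arrays and 7.28, 7.26, 6.66, 7.70 and 7.65 in the KO arrays. The groups did not overlap, and the rise was 1.38 (SE 0.20, adjusted p = 0.00346), called in all 9 fits. All WT arrays lay below the 6.43 level, so Spry2 was tested only through its level in KO, and no fold is given. Spred1, which acts with neurofibromin to switch off RAS, rose by 0.67 (adjusted p = 0.0114), and Dab2ip, a RAS GTPase-activating protein, by 0.80 (adjusted p = 0.00035). Both were called in all 9 fits. Over the whole list of ERK feedback inhibitors, 2 of 19 tested members were called higher and 0 lower, against 1.17% higher and 1.26% lower of all tested genes, with 6 positive and 13 negative changes and a median of -0.11.

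Inppl1, Insr, Ppm1e, Ptpn9, Pip4p2 and Smad3, which act in growth factor signalling or as phosphatases, rose, and Ptprs fell. Inppl1 encodes SHIP2, a lipid phosphatase that removes the 5-phosphate from the product of PI3 kinase. It read 7.15, 7.32, 7.11 and 7.38 in the WT arrays and 8.07, 7.92, 8.49, 8.17 and 7.82 in the KO arrays, with no overlap between groups and a change of 0.89 (SE 0.13, adjusted p = 0.00387). Insr, the insulin receptor gene, named after its values were seen, rose by 0.46 (adjusted p = 0.0251) and was called in 5 of 9 fits, not without WT 1, WT 2, WT 4 or KO 3 (adjusted p up to 0.11). Ppm1e, a phosphatase of calmodulin-dependent kinases, rose by 1.20 (adjusted p = 0.000848) and the tyrosine phosphatase gene Ptpn9 by 0.87 (adjusted p = 0.000319), both in all 9 fits. Pip4p2, which removes a phosphate from phosphatidylinositol 4,5-bisphosphate, rose by 1.04 (adjusted p = 0.00189). Ptprs, a receptor tyrosine phosphatase of proteoglycans, fell by 0.38 (adjusted p = 0.0331) and was called in 2 of 9 fits, not without any 1 WT array, KO 2, KO 3 or KO 4 (adjusted p up to 0.0869). Smad3, a signal carrier of TGF-beta receptors, rose by 0.55 (adjusted p = 0.0189), called in 7 of 9 fits, not without WT 1 or WT 4 (adjusted p up to 0.107), the only call among 23 tested TGF-beta and BMP genes. In the list of protein phosphatases 2 of 36 tested members were called higher and 1 lower (8.33%), against 2.44% of all tested genes. The median was 0.021.

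A receptor kinase and a kinase of the ERK cascade fell. Ret, the receptor of the GDNF family, read 7.92, 7.80, 8.29 and 7.93 in the WT arrays and 7.61, 7.38, 6.80, 7.08 and 7.32 in the KO arrays, with all KO values under all WT values. The change was -0.82 (SE 0.15, adjusted p = 0.0125), called in all 9 fits. Map3k8 encodes TPL2, a kinase that starts the ERK cascade after Toll-like receptor and CD40 signals. It read 7.88, 7.97, 8.09 and 8.47 in the WT arrays and 7.64, 7.59, 7.14, 7.68 and 7.60 in the KO arrays, with KO 3 lowest and no overlap. The change was -0.67 (SE 0.15, adjusted p = 0.0311), called in 4 of 9 fits, not without WT 2, WT 3, WT 4, KO 2 or KO 3 (adjusted p up to 0.143). In the Ras, MAP kinase and ERK list 0 of 34 tested members were called higher and 0 lower and the median was -0.0030. Its members Map2k1 at -0.25 (adjusted p = 0.176) and Rasgrp2 at -0.38 (adjusted p = 0.158) did not pass. In the list of PI3K, AKT and mTOR genes 0 of 30 tested members were called higher and 0 lower.

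Cacna1s, Ryr1 and Nfatc2, which act in calcium signalling, were lower. Cacna1s encodes the pore of an L-type calcium channel and Ryr1 the ryanodine receptor that releases stored calcium, both best known from muscle. Cacna1s read 8.88, 9.03, 8.91 and 9.11 in the WT arrays and 8.40, 8.41, 8.18, 8.34 and 8.23 in the KO arrays. It fell by 0.67 (SE 0.09, adjusted p = 0.00251), a linear fold of 1.59. Ryr1 read 11.52, 11.43, 11.46 and 10.90 in the WT arrays and 10.58, 10.28, 10.68, 10.17 and 9.93 in the KO arrays, and WT 4 was the lowest WT array. Its change was -0.90 (SE 0.16, adjusted p = 0.00828). For both genes no KO array reached a WT array and the call stood in all 9 fits, but a dim probe set of Ryr1 under the filter did not differ from WT beyond its error (-0.0020, SE 0.15). Nfatc2, a transcription factor that calcium moves into the nucleus through calcineurin, read 10.88, 10.83, 10.89 and 10.74 in the WT arrays and 10.52, 10.38, 10.40, 10.40 and 10.44 in the KO arrays. The groups did not overlap and the change was -0.39 (SE 0.06, adjusted p = 0.00445), called in all 9 fits. Other Nfatc2 probe sets, all below the filter, had smaller changes, from -0.22 to -0.06.

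Among adaptors and kinases that act below lymphocyte receptors, lower calls were Fyn, a SRC family kinase, at -0.56 (adjusted p = 0.0271), Lat, the scaffold of T cell receptor signals, at -0.47 (adjusted p = 0.0254), Sh2d2a at -0.56 (adjusted p = 0.0186), Grap at -0.40 (adjusted p = 0.0387) and Tespa1 at -0.64 (adjusted p = 0.0156). Ptk2b, the calcium-responsive kinase PYK2, fell by 0.25 (adjusted p = 0.0482). Fyn was called in 5 of 9 fits, not without WT 1, WT 2, WT 3 or KO 4 (adjusted p up to 0.0831), and Lat in 6 of 9 fits, not without WT 1, WT 4 or KO 4 (adjusted p up to 0.131). Sh2d2a was called in 6 of 9 fits, not without WT 1, WT 3 or KO 4 (adjusted p up to 0.0594), Grap in 2 of 9 fits, not without WT 1, WT 3, WT 4, KO 1, KO 2, KO 3 or KO 4 (adjusted p up to 0.179), Tespa1 in 8 of 9 fits, not without WT 1 (adjusted p up to 0.0507) and Ptk2b in 0 of 9 fits (adjusted p up to 0.138). Lat is also 1 of the T cell markers, of which 4 of 12 exceeded the filter and only Lat was called. The mean T cell level overlapped between groups, at 5.93 to 6.25 in WT and 5.89 to 6.46 in KO, with Cd247, Cd8a and Cd3e above the filter and not called. NK cells express some of these genes too. The NK marker mean read 6.46, 6.42, 7.13 and 4.99 in the WT arrays (mean 6.25). It read 7.30, 5.31, 5.26, 5.00 and 5.04 in the KO arrays (mean 5.58). The overlap of the groups came from WT 4 and KO 1. The part of either cell type in these results was not tested.

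Rgs13, a regulator of G protein signalling that is a hallmark of germinal centre B cells, read 11.77, 11.80, 11.88 and 11.78 in the WT arrays and 11.34, 11.48, 11.10, 11.30 and 10.75 in the KO arrays. The groups were separate, with a change of -0.62 (SE 0.12, adjusted p = 0.018), called in 7 of 9 fits, not without WT 3 or WT 4 (adjusted p up to 0.0594). Of 10 tested germinal centre markers Rgs13 alone was called, and that list had 4 positive and 6 negative changes and a median of -0.053. Rgs2 fell by 0.38 (adjusted p = 0.0424), called in 1 of 9 fits, not without any 1 WT array, KO 2, KO 3, KO 4 or KO 5 (adjusted p up to 0.12). In the list of potassium, calcium, chloride and TRP channels, which does not hold Cacna1s or Ryr1, 0 of 32 tested members were called higher and 2 lower, namely Kcnq5 at -0.29 (adjusted p = 0.034) and Orai2, a store-operated calcium channel, at -0.34 (adjusted p = 0.0479). Both calls were fragile, since Kcnq5 was called in 2 of 9 fits, not without WT 1, WT 3, WT 4, KO 2, KO 3, KO 4 or KO 5 (adjusted p up to 0.124) and Orai2 in 1 of 9 fits, not without any 1 WT array, KO 1, KO 2, KO 3 or KO 5 (adjusted p up to 0.199). Another Kcnq5 probe set above the filter changed by -0.07 (SE 0.17). The list had 6 positive and 26 negative changes and a median of -0.08. Fyn, Sh2d2a, Grap, Tespa1, Nfatc2, Ptk2b and Rgs2 were named after their values were seen.

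**Figure D3:**
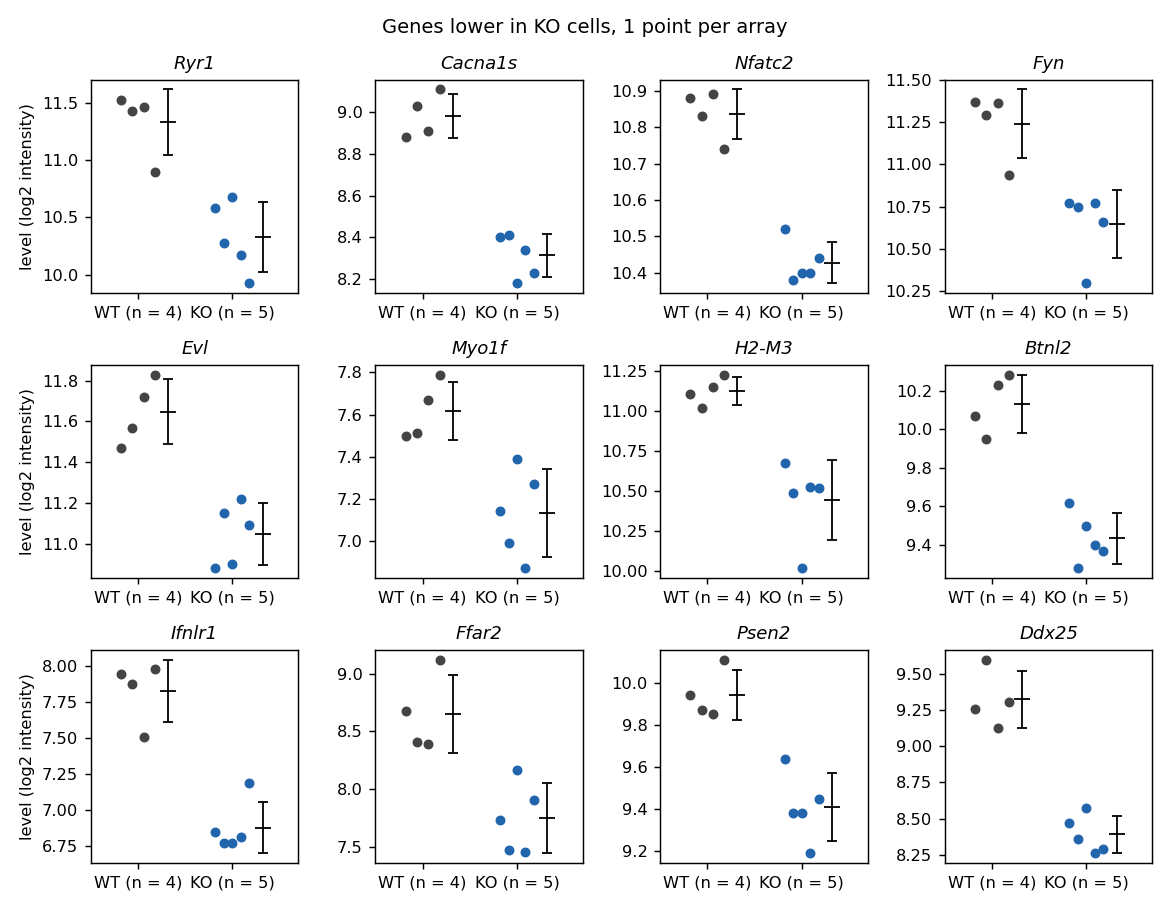
Log2 intensity (vertical axis, on a scale of its own in each panel) in each WT (n = 4) and KO (n = 5) array for 12 genes called lower in KO, with 1 point per mouse and the mean ± SD beside the points. Every KO point lay below every WT point in all panels.

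Transcription factors and chromatin enzymes changed in both directions. Kdm5b encodes a demethylase that removes methyl groups from lysine 4 of histone H3, a mark of active promoters. It read 6.80, 6.71, 6.12 and 6.91 in the WT arrays and 8.09, 7.82, 7.91, 7.85 and 8.40 in the KO arrays, with KO 5 highest and no overlap. The rise was 1.26 (SE 0.15, adjusted p = 0.000848), or 2.4-fold, called in all 9 fits. The gene's other probe sets, all below the filter, changed by 0.75, 0.37 and 0.17 (SE 0.13 for the last). Prmt2, an arginine methyltransferase, read 7.74, 8.11, 7.67 and 8.45 in the WT arrays and 9.14, 8.93, 9.07, 9.12 and 9.09 in the KO arrays. The groups were again separate, with a change of 1.01 (SE 0.12, adjusted p = 0.000848), and another probe set rose by 0.39. Smyd2, a lysine methyltransferase, rose by 0.67 (adjusted p = 0.0424) but was called in 1 of 9 fits, not without any 1 WT array, KO 1, KO 3, KO 4 or KO 5 (adjusted p up to 0.108). Of the histone methyltransferases 2 of 37 tested members were called higher and 0 lower (5.41%), against 2.44% of all tested genes. Their median was 0.013.

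Among transcription regulators, Gfi1, Trps1, Lmo4, Mxi1, Mxd1 and Tfdp2 rose. Gfi1, a zinc finger repressor of blood cells, read 6.75, 6.79, 7.29 and 7.32 in the WT arrays and 8.08, 8.19, 8.46, 8.18 and 8.64 in the KO arrays. WT and KO did not overlap, and the change was 1.23 (SE 0.15, adjusted p = 0.000934), called in all 9 fits. Trps1, a repressor of the GATA family, rose by 0.99 (adjusted p = 0.0156), called in 8 of 9 fits, not without WT 4 (adjusted p up to 0.0971), and Lmo4, a LIM domain adaptor, by 0.68 (adjusted p = 0.00104), called in all 9 fits. Mxi1 and Mxd1 bind MAX in place of MYC. Mxi1 rose by 0.85 (adjusted p = 0.00581), called in all 9 fits, with a dimmer probe set at 0.08, and Mxd1 by 0.52 (adjusted p = 0.0427), called in 2 of 9 fits, not without WT 1, WT 2, WT 3, KO 1, KO 3, KO 4 or KO 5 (adjusted p up to 0.12). Tfdp2, the partner of E2F factors, rose by 0.62 (adjusted p = 0.000934), called in all 9 fits. Among 45 tested haematopoietic transcription factors, Gfi1 and Lmo4 were the only ones called, and 16 positive and 29 negative changes gave a median of -0.078.

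Nr4a1, an orphan nuclear receptor and immediate early gene of antigen receptor signals, was lower. It read 6.88, 6.81, 6.97 and 7.37 in the WT arrays and 6.41, 6.19, 6.32, 6.02 and 6.19 in the KO arrays, and KO was lower throughout. The change was -0.86 (SE 0.10, adjusted p = 0.000848), called in all 9 fits. It was the sole member called among 23 tested nuclear receptors and coactivators. Per1, a repressor of the circadian clock, fell by 0.52 (adjusted p = 0.0184), called in 8 of 9 fits, not without WT 4 (adjusted p up to 0.103), and the other 14 of 15 tested clock genes were not called. Jarid2, a cofactor of Polycomb complex 2, fell by 0.47 (adjusted p = 0.0351), while Scmh1 of Polycomb complex 1 rose by 0.57 (adjusted p = 0.018). Jarid2 was called in 3 of 9 fits, not without any 1 WT array, KO 2 or KO 4 (adjusted p up to 0.1) and Scmh1 in 7 of 9 fits, not without WT 1 or WT 4 (adjusted p up to 0.0567). Cxxc5 fell by 0.37 (adjusted p = 0.01), called in 8 of 9 fits, not without WT 4 (adjusted p up to 0.0671), and Jmjd1c changed by -0.29 (adjusted p = 0.0372), called in 2 of 9 fits, not without WT 1, WT 3, WT 4, KO 2, KO 3, KO 4 or KO 5 (adjusted p up to 0.117).

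The 3 further chromatin lists examined held no called gene. At the 2.44% called of all tested genes, lists of this size would hold few calls. Of SWI/SNF, ISWI, CHD and INO80 remodellers 0 of 43 tested members were called higher and 0 lower, of bromodomain proteins and Mediator 0 of 43 tested members were called higher and 0 lower, and of DNA methylation and TET enzymes 0 of 18 tested members were called higher and 0 lower. The changes of Bcl7b, a SWI/SNF subunit, at -0.27 (adjusted p = 0.0725), and of the DNA methyltransferase genes Dnmt3a at 0.44 (adjusted p = 0.105) and Dnmt3b at 0.26 (adjusted p = 0.227) did not pass. Cdkn2a, which encodes inhibitors of the cell cycle, rose by 0.43 (adjusted p = 0.0216) and was called in 5 of 9 fits, not without WT 1, WT 3, KO 3 or KO 4 (adjusted p up to 0.0673), the only call among 23 tested cell cycle inhibitors. Mxi1, Mxd1, Tfdp2, Cxxc5 and Jmjd1c were named after their values were seen.

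Of 11 tested related X-linked genes 4 were called higher. The Armcx and Gprasp genes lie together on the X chromosome and encode armadillo-repeat proteins, some of them on mitochondria or bound to G protein coupled receptors. Armcx4 read 6.27, 6.57, 5.93 and 6.70 in the WT arrays and 7.58, 7.71, 7.60, 7.68 and 7.46 in the KO arrays. The WT arrays lay on either side of the 6.43 level and all KO arrays above them, a change of 1.22 (SE 0.14, adjusted p = 0.000812), called in all 9 fits. Bhlhb9 rose by 0.47 (adjusted p = 0.00872), called in all 9 fits. Armcx2 rose by 0.58 (SE 0.14, adjusted p = 0.0479) but was called in 1 of 9 fits, not without any 1 WT array, KO 1, KO 2, KO 3 or KO 4 (adjusted p up to 0.168). Gprasp1 rose by 0.79 (adjusted p = 0.0496), called in 1 of 9 fits, not without any 1 WT array, KO 1, KO 3, KO 4 or KO 5 (adjusted p up to 0.126). Its other probe set, also above the filter, changed by 0.14 (SE 0.21). Of the 11 tested Armadillo-X, BEX and TCEAL genes these 4 were called, which is 36.4% against 2.44% of all tested genes. All KO arrays lay above all WT arrays for 5 of the 11, against 2.87% of all tested genes. The list was drawn up with earlier results of these arrays known, so these shares are a description. The list had 9 positive and 2 negative changes and a median of 0.28, the highest of the 51 lists. KO mice had 3 males in 5 and WT mice 1 in 4, and these changes are those with sex held in the fit.

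Of 33 tested mitochondrial carriers 2 were called higher and 0 lower (6.06%), against 2.44% of all tested genes. Slc25a24 encodes the ATP-Mg and phosphate carrier of mitochondria. It read 6.24, 6.52, 6.90 and 7.18 in the WT arrays and 7.85, 7.83, 8.50, 7.68 and 7.91 in the KO arrays, with KO 3 apart above the other KO arrays and no overlap. The change was 1.25 (SE 0.20, adjusted p = 0.00568), called in all 9 fits. Slc25a13, the aspartate and glutamate carrier, rose by 0.43 (adjusted p = 0.0404) but was called in 2 of 9 fits, not without WT 1, WT 3, WT 4, KO 1, KO 2, KO 3 or KO 4 (adjusted p up to 0.119). The 33 carriers had 16 positive and 17 negative changes and a median of -0.00063.

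Nnt encodes the transhydrogenase that makes NADPH in mitochondria, and C57BL/6J mice carry a deletion in it. Nnt read 10.69, 10.68, 10.37 and 10.79 in the WT arrays and 11.43, 11.41, 11.53, 11.34 and 11.10 in the KO arrays, with no overlap. The change was 0.70 (SE 0.12, adjusted p = 0.00784), called in all 9 fits, and the HET mean was 11.01. Of its other probe sets above the filter, the brighter rose by 0.63 and the dimmer differed by -0.15 (SE 0.11). All mice had the same mixed background in the labels, which give neither the Nnt genotype nor the strain of origin of other loci for any mouse. The part of strain differences in this result and in the other calls was not tested. A pair of enzymes that use NADPH or quinones rose as well, named like Nnt after their values were seen. Nqo2 rose by 0.60 (adjusted p = 0.00358), the carbonyl reductase gene Cbr1 by 0.71 (adjusted p = 0.00725), and both in all 9 fits. Another Nqo2 probe set above the filter changed by only 0.15 (SE 0.12), and a dimmer one below it by 0.17 (SE 0.24). From the glutathione and NRF2 list, Gpx7, a peroxidase of the endoplasmic reticulum, rose by 0.96 (adjusted p = 0.012), called in 8 of 9 fits, not without WT 4 (adjusted p up to 0.0567). The WT mean of Gpx7, at 6.23, lay below the 6.43 level. Gstp3, a glutathione transferase gene, fell by 0.39 (SE 0.06, adjusted p = 0.00697), called in all 9 fits. In that list, which also holds Tktl1, 1 of 33 tested members were called higher and 2 lower, with a median of 0.029.

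Genes of fatty acid oxidation had small changes of mainly positive sign, while single enzymes of amino acid breakdown were called higher. In the fatty acid oxidation list 0 of 30 tested members were called higher and 0 lower, yet there were 24 positive and 6 negative changes, against 49% positive over all tested genes, with a median of 0.087. Its members Acadsb at 0.35 (adjusted p = 0.243), Etfdh at 0.22 (adjusted p = 0.173) and Ech1 at 0.18 (adjusted p = 0.195) did not pass. Outside the list, chosen after values were seen, the dehydrogenase gene Acad8 of valine breakdown rose by 0.54 (adjusted p = 0.0143), called in all 9 fits. Decr1, which prepares unsaturated fatty acids for oxidation, rose by 0.48 (adjusted p = 0.0323), called in 3 of 9 fits, not without any 1 WT array, KO 2 or KO 3 (adjusted p up to 0.124). Mcee, of propionate breakdown, rose by 0.56 (adjusted p = 0.0254), called in 6 of 9 fits, not without WT 4, KO 2 or KO 3 (adjusted p up to 0.0668), and Hsd17b10, of isoleucine breakdown, by 0.34 (adjusted p = 0.0389), called in 3 of 9 fits, not without WT 2, WT 3, WT 4, KO 1, KO 2 or KO 3 (adjusted p up to 0.112). Ndufaf2, an assembly factor of complex I, rose by 0.35 (adjusted p = 0.046), called in 2 of 9 fits, not without WT 1, WT 3, WT 4, KO 1, KO 2, KO 3 or KO 5 (adjusted p up to 0.149). The changes of Echdc3 at -0.64 (adjusted p = 0.00841) and of Ethe1, a mitochondrial sulphur dioxygenase, at -0.57 (adjusted p = 0.0147) went the other way. Echdc3 was called in all 9 fits and Ethe1 in 8 of 9 fits, not without WT 4 (adjusted p up to 0.0918). No gene was called among 34 tested TCA cycle and pyruvate genes.

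Single enzymes of sugar and one-carbon metabolism also changed. Eno2, the enolase typical of neurons, read 6.10, 6.45, 6.16 and 5.82 in the WT arrays and 7.68, 7.52, 7.70, 6.76 and 7.31 in the KO arrays. All KO arrays were above all WT arrays, although KO 4 was close to WT 2. The fitted change was 1.25 (SE 0.21, adjusted p = 0.00605), called in all 9 fits, against a WT mean of 6.13, under the 6.43 level. Tktl1, a transketolase-like gene, fell by 1.19 (SE 0.21, adjusted p = 0.00851), called in all 9 fits. Ahcyl2 fell by 0.34 (adjusted p = 0.046), called in 1 of 9 fits, not without any 1 WT array, KO 1, KO 2, KO 3 or KO 4 (adjusted p up to 0.147), and Gch1, the first enzyme of tetrahydrobiopterin synthesis and picked after its values were seen, changed by -0.61 (adjusted p = 0.0372), called in 2 of 9 fits, not without WT 1, WT 2, WT 4, KO 2, KO 3, KO 4 or KO 5 (adjusted p up to 0.0972). Car2, a carbonic anhydrase, read 8.58, 8.87, 8.51 and 8.42 in the WT arrays and 9.93, 9.64, 9.57, 9.29 and 9.10 in the KO arrays, a change of 0.92 (SE 0.16, adjusted p = 0.00725), called in 8 of 9 fits, not without WT 4 (adjusted p up to 0.0544). Car2 was also the only red cell marker above the filter, and the others, such as Hba-a1, Alas2, Klf1 and Slc4a1, lay below it in both groups. Slc7a7, an amino acid transporter, fell by 0.56 (adjusted p = 0.046), called in 3 of 9 fits, not without any 1 WT array, KO 2 or KO 4 (adjusted p up to 0.15).

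**Figure D4:**
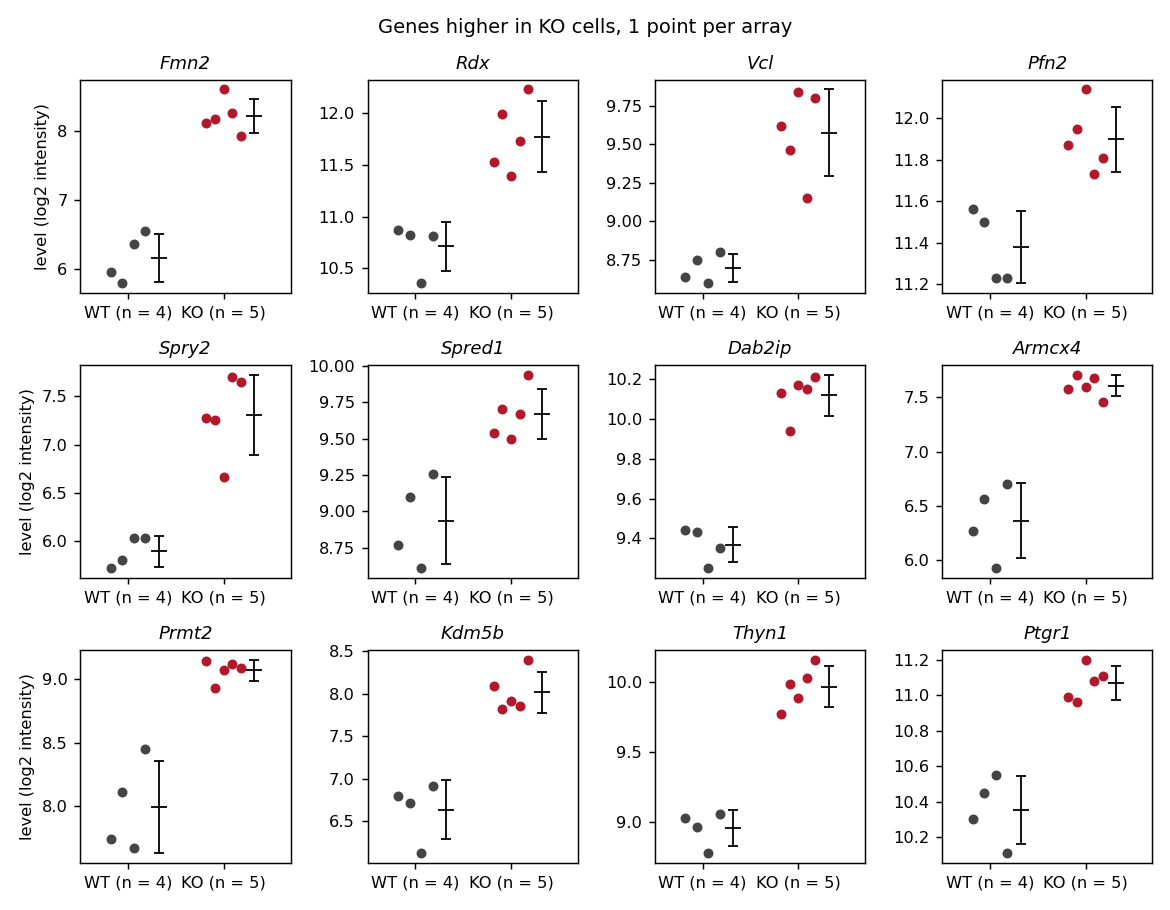
Log2 intensity (vertical axis, on a scale of its own in each panel) in each WT (n = 4) and KO (n = 5) array for 12 genes called higher in KO, with 1 point per mouse and the mean ± SD beside the points. Every KO point lay above every WT point in all panels.

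Enzymes of lipid mediators and membrane lipids changed in both directions. Ptgr1 reduces prostaglandins and leukotriene B4 to inactive forms. It read 10.30, 10.45, 10.55 and 10.11 in the WT arrays and 10.99, 10.96, 11.20, 11.08 and 11.11 in the KO arrays. The groups were separate, with a change of 0.80 (SE 0.08, adjusted p = 0.000319), called in all 9 fits. Cyp4f18, which oxidises leukotriene B4 by another route, fell by 0.49 (adjusted p = 0.0212), called in 6 of 9 fits, not without WT 3, WT 4 or KO 4 (adjusted p up to 0.118). The list of eicosanoid and lipid mediator genes had 3 positive and 8 negative changes, with Ptgr1 higher and Cyp4f18 lower among 11 tested and a median of -0.20. Fads2, a desaturase of polyunsaturated fatty acids, rose by 0.41 (adjusted p = 0.00574), called in all 9 fits, and is with Faah a choice made after values were seen. Faah, which breaks down anandamide, rose by 0.83 (adjusted p = 0.0329), called in 3 of 9 fits, not without WT 1, WT 2, WT 3, KO 1, KO 3 or KO 4 (adjusted p up to 0.095). Its other probe set, also above the filter, changed by only 0.09 (SE 0.09). The alkaline ceramidase gene Acer3 rose by 0.41 (adjusted p = 0.0494), called in 1 of 9 fits, not without any 1 WT array, KO 1, KO 3, KO 4 or KO 5 (adjusted p up to 0.118). Its other probe set above the filter changed by 0.03 (SE 0.22).

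Cyp27a1, which makes 27-hydroxycholesterol, read 8.91, 8.88, 9.04 and 9.23 in the WT arrays and 8.79, 7.47, 8.32, 7.99 and 7.70 in the KO arrays. No KO array reached the WT range, and the change was -0.96 (SE 0.21, adjusted p = 0.0328), called in 4 of 9 fits, not without any 1 WT array or KO 4 (adjusted p up to 0.143). Ffar2, a receptor of short-chain fatty acids, fell by 0.96 (SE 0.17, adjusted p = 0.008), called in 8 of 9 fits, not without WT 4 (adjusted p up to 0.0567). Gpr18, a lymphocyte receptor of lipids, fell by 0.32 (adjusted p = 0.0276), called in 3 of 9 fits, not without WT 1, WT 2, WT 4, KO 2, KO 3 or KO 4 (adjusted p up to 0.0947). Of 17 tested receptors of small ligands these were the 2 called. Pde2a, a phosphodiesterase that degrades cyclic AMP and cyclic GMP, had 9.88 ± 0.34 (SD, n = 4) in WT and 8.67 ± 0.67 (SD, n = 5) in KO, a change of -1.22 (SE 0.30, adjusted p = 0.0496) that was called in 1 of 9 fits, not without any 1 WT array, KO 1, KO 2, KO 4 or KO 5 (adjusted p up to 0.144). Its other probe set above the filter changed by -1.16.

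H2-M3, Btnl2, Cd180 and Pecam1, surface proteins of immune cells, were lower. H2-M3 is a class I-like molecule that presents formylated peptides. It read 11.11, 11.02, 11.15 and 11.23 in the WT arrays and 10.68, 10.49, 10.02, 10.53 and 10.52 in the KO arrays. KO 3 lay apart below the other KO arrays, the groups did not overlap, and the change was -0.72 (SE 0.11, adjusted p = 0.00465), called in all 9 fits. Btnl2, a butyrophilin-like protein that restrains T cells, read 10.07, 9.95, 10.23 and 10.28 in the WT arrays and 9.62, 9.28, 9.50, 9.40 and 9.37 in the KO arrays. It fell by 0.72 (SE 0.09, adjusted p = 0.000991) with separate groups, called in all 9 fits. Cd180, a Toll-like protein of B cells, changed by -0.31 (adjusted p = 0.0467) and was called in 1 of 9 fits, not without any 1 WT array, KO 1, KO 3, KO 4 or KO 5 (adjusted p up to 0.128). The adhesion receptor gene Pecam1 fell by 0.56 (adjusted p = 0.0389), called in 2 of 9 fits, not without any 1 WT array, KO 2, KO 3 or KO 4 (adjusted p up to 0.124). Pecam1 is a marker of endothelium too. The mean of the 12 stromal and endothelial markers was 5.94 in WT and 5.81 in KO, and Pdgfrb, the other of them above the filter, had means of 7.30 and 7.10. Their part in the Pecam1 result was not tested.

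Of the cytokines and their receptors, 0 of 29 tested members were called higher and 2 lower, against 1.17% and 1.26% of all tested genes, and the list had 4 positive and 25 negative changes and a median of -0.21, the lowest of the 51 lists. Ifnlr1, the receptor chain for interferon lambda, read 7.95, 7.88, 7.51 and 7.98 in the WT arrays and 6.85, 6.77, 6.77, 6.81 and 7.19 in the KO arrays. The groups did not overlap, and it fell by 1.02 (SE 0.11, adjusted p = 0.000582), called in all 9 fits. Ebi3, a subunit of interleukins 27 and 35, fell by 0.61 (SE 0.09, adjusted p = 0.00419), called in all 9 fits. Crlf2, the receptor of TSLP, named after its values were seen, fell by 0.56 (adjusted p = 0.0193), called in 6 of 9 fits, not without WT 1, WT 2 or WT 4 (adjusted p up to 0.072). In the list of Fc, immunoglobulin-like and SLAM receptors 0 of 27 tested members were called higher and 0 lower, with 7 positive and 20 negative changes and a median of -0.14. Its member Fcgr4 changed by -0.56 (adjusted p = 0.063), which did not pass, and Sema7a changed by -0.38 (adjusted p = 0.0746).

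Padi2, Mpeg1, Crisp3 and Prss55, better known from myeloid cells, secretions or other tissues, were lower. Padi2, which converts arginine in proteins to citrulline, read 10.77, 10.79, 10.97 and 10.52 in the WT arrays and 10.17, 9.50, 9.45, 9.86 and 10.31 in the KO arrays. The change was -0.91 (SE 0.17, adjusted p = 0.0115) with separate groups, called in all 9 fits. Mpeg1, a pore-forming protein of phagocytes and B cells picked after its values were seen, fell by 0.55 (adjusted p = 0.0137), called in all 9 fits. Crisp3, a secreted granule protein, had 7.95 ± 0.32 (SD, n = 4) in WT and 6.47 ± 0.57 (SD, n = 5) in KO. Its change was -1.47 (SE 0.29, adjusted p = 0.0175), called in 7 of 9 fits, not without WT 1 or WT 4 (adjusted p up to 0.0875). Prss55, a serine protease, fell by 0.55 (adjusted p = 0.00347), called in all 9 fits. The neutrophil markers averaged 5.06 to 5.71 in WT and 5.06 to 5.52 in KO with 2 of 12 above the filter, the macrophage markers 5.77 to 6.42 and 5.88 to 6.77 with 3 of 12 above it, and their part in these results was not tested. None of those markers was called.

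At the cell surface, Adgrl2, an adhesion G protein coupled receptor known as latrophilin 2, was higher. It read 8.71, 9.03, 8.54 and 8.26 in the WT arrays and 10.41, 10.34, 10.59, 9.85 and 9.52 in the KO arrays. All KO arrays exceeded all WT arrays, with a change of 1.53 (SE 0.25, adjusted p = 0.00569) or 2.88-fold, called in all 9 fits. Another probe set above the filter rose by 1.55, and a probe set below it differed by 0.21 (SE 0.20). Thbd, thrombomodulin, which turns thrombin towards protein C, rose by 0.90 (adjusted p = 0.000848), called in all 9 fits. Sdc1, the syndecan that marks plasma cells, rose by 0.81 (adjusted p = 0.0404) but was called in 2 of 9 fits, not without any 1 WT array, KO 1, KO 2 or KO 3 (adjusted p up to 0.118). The other 9 of 10 tested plasma cell markers were not called, and the list averaged 9.99 to 10.18 in WT and 9.81 to 10.13 in KO. Pear1, a platelet receptor picked after its values were seen, changed by -0.49 (adjusted p = 0.0277), called in 4 of 9 fits, not without WT 1, WT 2, WT 3, KO 2 or KO 4 (adjusted p up to 0.0806). Its other probe sets above the filter changed by -0.46, -0.46 and -0.07 (SE 0.11 for the last).

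Enzymes that build glycans changed singly. Hs3st1 adds the 3-O-sulphate that lets heparan sulphate bind antithrombin. It read 7.74, 7.95, 7.67 and 7.75 in the WT arrays and 6.88, 6.53, 6.99, 6.58 and 7.14 in the KO arrays, with no overlap. The change was -0.99 (SE 0.19, adjusted p = 0.0143), called in all 9 fits. Chst10, which makes the HNK-1 sulphate, changed by -0.78 (adjusted p = 0.0165), called in 7 of 9 fits, not without WT 4 or KO 4 (adjusted p up to 0.104). In the heparan sulphate list, which also holds Sdc1, a carrier of these chains, 1 of 30 tested members were called higher and 2 lower, with a median of 0.00016. Poglut2, which adds glucose to EGF repeats, rose by 1.14 (adjusted p = 0.000443), called in all 9 fits. No member was called among 37 tested sialyltransferases, fucosyltransferases and branching enzymes, of which Mgat4b changed by 0.24 (adjusted p = 0.0657). Dtx1, a regulator of Notch receptors, changed by -0.41 (adjusted p = 0.0496), called in 2 of 9 fits, not without WT 2, WT 3, WT 4, KO 1, KO 2, KO 4 or KO 5 (adjusted p up to 0.222). It is also a marker of naive and marginal zone B cells. Of 7 such markers tested, with 2 positive and 5 negative changes, Dtx1 alone was called. The mean of the 9 markers with a probe set ran from 8.50 to 8.78 in WT and from 8.19 to 8.67 in KO. The part of these cells in the Dtx1 result was not tested.

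Genes of vesicle traffic, lysosomes and ubiquitin formed a further mixed group. Clec16a, which takes part in mitophagy and endosomal traffic, read 6.86, 6.86, 7.16 and 6.97 in the WT arrays and 7.74, 8.14, 8.04, 8.45 and 8.39 in the KO arrays. The groups did not overlap and the change was 1.20 (SE 0.13, adjusted p = 0.000605), called in all 9 fits. It was the only call among 44 tested autophagy genes. Evi5, a protein that acts on RAB11, rose by 0.99 (adjusted p = 0.000934), called in all 9 fits. Among 57 tested RAB and SNARE genes, Rab32 rose by 0.85 (adjusted p = 0.0156), called in 8 of 9 fits, not without WT 4 (adjusted p up to 0.0998), whereas Rab37, of secretory granules, fell by 0.72 (adjusted p = 0.00851), called in 8 of 9 fits, not without WT 4 (adjusted p up to 0.0586). The endosomal Rab4b changed by -0.39 (adjusted p = 0.0376), called in 0 of 9 fits (adjusted p up to 0.136), and Rab31 by -0.33 (adjusted p = 0.0496), called in 0 of 9 fits (adjusted p up to 0.129). Dennd11, a DENN domain gene, fell by 0.68 (SE 0.11, adjusted p = 0.00584), called in all 9 fits.

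Psen2, a catalytic subunit of gamma-secretase, fell by 0.60 (adjusted p = 0.000848), called in all 9 fits. The lysosomal hexosaminidase gene Hexa fell by 0.53 (adjusted p = 0.0124), called in 8 of 9 fits, not without WT 4 (adjusted p up to 0.062), the only call among 37 tested lysosomal hydrolases. Among 72 tested RING and TRIM ligases, Trim2 rose by 0.94 (adjusted p = 0.0408), called in 2 of 9 fits, not without WT 1, WT 2, WT 3, KO 2, KO 3, KO 4 or KO 5 (adjusted p up to 0.119). Rnf183, a ligase of stressed endoplasmic reticulum, read 7.39, 7.63, 7.29 and 8.52 in the WT arrays and 6.90, 6.63, 6.75, 6.73 and 6.94 in the KO arrays, a change of -1.03 (SE 0.17, adjusted p = 0.00594) with no overlap, called in all 9 fits. Rnf122 fell by 0.69 (adjusted p = 0.00736), called in 8 of 9 fits, not without WT 4 (adjusted p up to 0.0545). Dcun1d4, which promotes neddylation of cullins, rose by 1.05 (adjusted p = 0.00918), called in all 9 fits.

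Several of the strongest changes belonged to genes whose role in B cells is little known. Tlcd5, a membrane protein with a TLC domain, read 7.54, 6.65, 6.93 and 7.44 in the WT arrays and 9.73, 9.51, 8.85, 9.35 and 8.78 in the KO arrays. The separation was complete and the change 2.01 (SE 0.21, adjusted p = 0.00035), or 4.03-fold, called in all 9 fits. Thyn1, a nuclear protein of lymphocytes, read 9.03, 8.97, 8.78 and 9.06 in the WT arrays and 9.77, 9.99, 9.89, 10.03 and 10.16 in the KO arrays. It rose by 1.02 (SE 0.10, adjusted p = 0.000319) with no overlap, and a second probe set above the filter rose by 1.06. Sccpdh rose by 0.90 (adjusted p = 0.00625), Nt5dc2 by 0.89 (adjusted p = 0.00347), Mfsd6, of the major facilitator family, by 0.83 (adjusted p = 0.00035) and Dip2a by 0.48 (adjusted p = 0.0102), each in all 9 fits. Tmem191c rose by 1.02 (adjusted p = 0.0231), called in 4 of 9 fits, not without WT 1, WT 2, WT 3, KO 3 or KO 4 (adjusted p up to 0.0767), and Myadm, chosen after values were seen as Dip2a was, changed by -0.43 (adjusted p = 0.0445), called in 2 of 9 fits, not without any 1 WT array, KO 2, KO 4 or KO 5 (adjusted p up to 0.121).

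On the lower side, Ccdc175 read 9.67, 9.71, 9.42 and 9.69 in the WT arrays and 8.49, 7.92, 8.17, 8.43 and 9.13 in the KO arrays, so the WT arrays, of which WT 3 was lowest, lay above all KO arrays. The change was -1.21 (SE 0.19, adjusted p = 0.00465), called in all 9 fits. Tmem51 read 8.13, 8.34, 8.14 and 8.69 in the WT arrays and 7.27, 6.86, 6.97, 7.22 and 7.85 in the KO arrays, a change of -1.18 (SE 0.17, adjusted p = 0.00263) with separate groups, called in all 9 fits. Fam167a changed by -0.87 (adjusted p = 0.00387), Sapcd1 by -0.73 (adjusted p = 0.00406), Hemgn, a nuclear protein of blood precursors, by -0.95 (adjusted p = 0.00289) and Ddx25, an RNA helicase of germ cells, by -0.95 (adjusted p = 0.000934). These 4 genes and the genes BC028528 at -0.56 (adjusted p = 0.000934), Gm9564 at -0.97 (adjusted p = 0.00736) and Gm31718 at -0.85 (adjusted p = 0.00419), of which the last pair is annotated as long noncoding RNA in RefSeq, were called in all 9 fits. The calls of Spata13 at -0.73 (adjusted p = 0.0488) and Eepd1, a nuclease, at -0.91 (adjusted p = 0.0372) were less stable. Spata13 was called in 1 of 9 fits, not without any 1 WT array, KO 2, KO 3, KO 4 or KO 5 (adjusted p up to 0.132) and Eepd1 in 4 of 9 fits, not without WT 1, WT 2, WT 4, KO 4 or KO 5 (adjusted p up to 0.178).

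Across the 51 lists of pathways and functions 1478 distinct genes were tested, and 61 of them were called, 30 higher and 31 lower, which is 4.13% against 2.44% of all tested genes. The lists were drawn up with earlier results of these arrays known, so this share is a description. A called member was found in 32 lists and none in 19. Medians of the 51 lists ran from -0.21 to 0.28, and those of the 19 lists without a call from -0.14 to 0.087. Housekeeping machinery had no called gene, with 0 of 36 tested proteasome subunits, 0 of 22 tRNA synthetases and 0 of 48 splicing factors. Proteasome subunits had 26 positive and 10 negative changes, all between -0.11 and 0.14. Of 44 tested phosphoinositide and phospholipase C genes none was called, with 10 positive and 34 negative changes and a median of -0.047. Absence of a call says that a change did not pass at this number of arrays, not that it was 0.

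**Figure D5:**
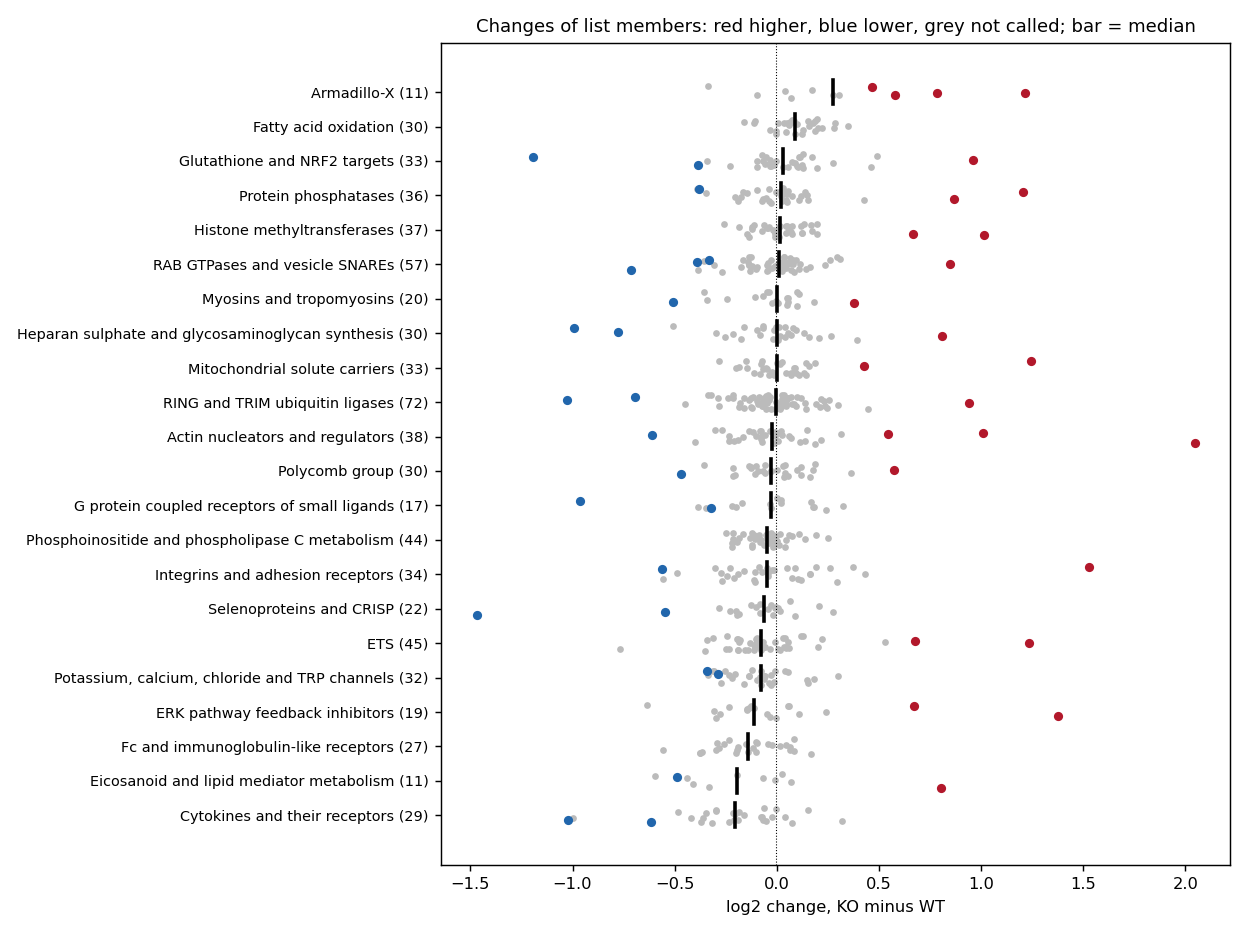
Log2 change KO minus WT (horizontal axis) of the tested members of a selection of the 51 gene lists, named by the first words of the list with the number of tested members, where each point is a gene (red called higher, blue called lower, grey not called) and a bar marks the list median. Members spread on both sides of 0, and list medians ran from -0.21 (cytokines and their receptors) to 0.28 (Armadillo-X, BEX and TCEAL genes).

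CREB binds the palindrome TGACGTCA, and promoters of the called genes were searched for it because CREBBP was named after that factor. RefSeq start site windows for GRCm38.p6, 250 bases before to 50 after the start, were found for 97 of 120 higher, 101 of 129 lower and 8358 of 10225 tested genes. A gene can have several windows and was counted if any held the motif, while the shares over all 32851 windows are per window. TGACGTCA was found for 0 of 97 higher genes, 2 of 101 lower genes (1.98%) and 3.85% of tested genes, and in 1.79% of all windows. The partial site TGACG on either strand, which the palindrome contains, was found for 21.6% of higher, 30.7% of lower and 37.1% of tested genes, and in 20.8% of all windows. For comparison, TGANTCA, the AP-1 site, was found for 7.22%, 8.91% and 5.46% of higher, lower and tested genes, CCAAT for 41.2%, 41.6% and 43.4%, and GGGCGG for 77.3%, 66.3% and 69.3%. The 2 lower genes with the palindrome were Ptprs and Kptn, the latter at -0.31 (adjusted p = 0.0467), called in 1 of 9 fits, not without any 1 WT array, KO 1, KO 2, KO 3 or KO 4 (adjusted p up to 0.166). Their windows and those of Nr4a1 and Rgs2, chosen after their values were seen as signal-induced genes with partial sites, are shown 5′ to 3′ from 250 bases before to 20 after the start, with the palindrome or the partial sites on either strand in capitals. They lie at chr17:56476461-56476730, minus strand for Ptprs, chr7:16119626-16119895, plus strand for Kptn, chr15:101266596-101266865, plus strand for Nr4a1 and chr1:144004130-144004399, minus strand for Rgs2.
Ptprs: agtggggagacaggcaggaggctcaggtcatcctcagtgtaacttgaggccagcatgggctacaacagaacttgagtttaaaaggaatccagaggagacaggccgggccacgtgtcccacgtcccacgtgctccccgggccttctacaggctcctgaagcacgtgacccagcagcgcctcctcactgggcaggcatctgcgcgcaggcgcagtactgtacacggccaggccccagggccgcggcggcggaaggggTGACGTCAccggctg
Kptn: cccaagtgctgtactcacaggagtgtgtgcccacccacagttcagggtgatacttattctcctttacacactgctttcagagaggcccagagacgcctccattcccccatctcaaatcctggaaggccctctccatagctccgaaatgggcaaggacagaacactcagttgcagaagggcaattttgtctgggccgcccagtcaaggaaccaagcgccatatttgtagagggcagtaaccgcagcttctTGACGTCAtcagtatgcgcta
Nr4a1: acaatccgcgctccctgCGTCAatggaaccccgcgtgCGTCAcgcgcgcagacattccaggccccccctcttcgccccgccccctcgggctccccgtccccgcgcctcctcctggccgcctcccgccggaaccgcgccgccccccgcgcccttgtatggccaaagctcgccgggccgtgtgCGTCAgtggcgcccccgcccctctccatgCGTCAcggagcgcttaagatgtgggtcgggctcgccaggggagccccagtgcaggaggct
Rgs2: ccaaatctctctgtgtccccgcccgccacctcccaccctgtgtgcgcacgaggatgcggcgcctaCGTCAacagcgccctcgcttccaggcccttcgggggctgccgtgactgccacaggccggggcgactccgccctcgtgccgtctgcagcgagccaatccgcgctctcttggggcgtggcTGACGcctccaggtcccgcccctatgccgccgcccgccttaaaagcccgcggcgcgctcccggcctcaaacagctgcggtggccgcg
The window of Nr4a1 held 4 partial sites and that of Rgs2 held 2. A match describes letters only, since binding was not measured here. Ptprs, Kptn and Rgs2 were among the calls near the threshold that were lost in most of the fits without 1 array.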

How the data were processed

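The authors deposited a log2 intensity for each probe set of each array. The submitters' processing notes name RMA, a method that subtracts background, quantile-normalises and summarises probes (its release is not given in the sources used here). Such normalisation would hide a shift of most genes, and dim probe sets are compressed. Per the labels' protocols, 25 ng of total RNA from each mouse was amplified and 3.75 ug of cDNA hybridised, so replicates are separate mice sorted individually. Their number limits the precision.

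Of 45101 probe sets, 64 are controls, 34945 name 1 gene, 932 several and 9160 none here. Gene identifiers of 34741 matched RefSeq for GRCm38.p6, and 0 symbols changed. Over 18193 genes the brightest probe set by mean was kept, and 10225 passed the filter. limma 3.58.1 in R 4.3.3 fitted group and sex over all 14 arrays, and was tested on simulated data.

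Genes named are the 30 higher and 30 lower with the largest change, called members of lists, the 10 of smallest p in each direction, up to 3 of smallest p in lists without a call, and examples that the text says were picked later. The members and lists were chosen with earlier results of these data known. Alternatives covered the filter, the choice of probe set, normalisation, sex, the arrays fitted and limma's options. Leaving out KO 3 and WT 4 together was added after seeing the data. The result of 1 gene list is not reported here.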

Additional observations from a re-analysis of the deposited data

Results flagged for a closer look

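In 19 of 318 group and gene combinations of the named genes (5.97%) a single array stood far from the others of its group, by Dixon's criterion for small groups, which chance meets in about 1 of 20 groups. KO 3 was that array for 7 genes. It was low for Crebbp (11.71, nearest other KO array 12.05), Map3k8 (7.14, nearest 7.59), H2-M3 (10.02, nearest 10.49) and Fyn (10.30, nearest 10.66), and high for Slc25a24 (8.50, nearest 7.91), Myl4 (13.21, nearest 12.93) and Acad8 (7.22, nearest 7.05). In each of these the array lay farther from the WT level than the other KO arrays.

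Among the other KO arrays, KO 5 was low for Ccdc88a (8.94, nearest 9.52) and Gstp3 (7.11, nearest 7.27) and high for Ifnlr1 (7.19, nearest 6.85). KO 2 was low for Dab2ip (9.94, nearest 10.13), and KO 1 was high for Fcgr4 (6.87, nearest 6.34).

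Among the WT arrays, WT 3 was low for Rdx (10.36, nearest 10.81), Ccdc175 (9.42, nearest 9.67) and Smyd2 (7.79, nearest 8.23). WT 4, from the only male WT mouse, was low for Ryr1 (10.90, nearest 11.43) and Fcgr4 (6.63, nearest 7.03) and high for Ptpn9 (7.98, nearest 7.61) and Bcl7b (9.62, nearest 9.41). No explanation of these values was tested.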

How the results depend on the processing

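The 120 higher and 129 lower calls kept their direction in every setting in which their gene was tested, except 1 of 217 genes when the probe set with the largest SD stood for each gene. These genes were chosen on the same arrays, so a kept direction is no independent support. The number past the threshold moved more. Higher calls were 49 with the filter at the upper quartile, 72 with the largest SD, 47 in females alone, 51 with only KO and WT arrays fitted and 47 without KO 3 and WT 4, the last chosen after seeing the data. Lower calls were 80 with no filter, 68 with the upper quartile, 73 with the largest SD, 32 in females alone, 47 with only KO and WT arrays and 28 without KO 3 and WT 4. The share of higher genes among the calls went from 48.2% to 59.5% in females alone, 67.7% without WT 4 and 62.7% without KO 3 and WT 4, and down to 38.2% without KO 3. It was 41.9% with the upper quartile, 44.2% with array weights and 46.9% to 48.6% with another normalisation. Leaving out 1 array gave 74 to 136 higher and 42 to 160 lower calls. Females alone tested 3 WT and 2 KO mice.

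Same-numbered WT and KO arrays had correlations of their deviations of 0.228, -0.0013, 0.132 and 0.041. For WT with HET they ran from 0.050 to 0.383 and for HET with KO from -0.175 to 0.368. Not every pair exceeded 0.1 in any of these comparisons, the bar set for a pairing, so the numbers were not used to pair the mice. With the replicate number as a block 107 higher and 91 lower genes were called, 163 of them among the 249.

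The Crebbp probe set with the largest change was at -0.79 (adjusted p = 0.121) in females alone, and at -0.91 to -0.84 when 1 array was left out. The other Crebbp probe sets gave -0.56 to -0.40, -0.48 to -0.31 and -0.42 to -0.21 without 1 array. Ep300, not past the threshold in any setting, turned positive without the sex term (0.017), in females alone (0.11), with only KO and WT arrays (0.0054), with array weights (0.11), and without KO 3 and WT 4 (0.15), and ran from -0.14 to 0.060 when 1 array was left out. These causes were not tested. The number of arrays and dim probe sets limit what could be called.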

Other observations

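Genes of natural killer cells and of granulocytes varied widely between mice within each group, and the ranges of WT and KO overlapped. For the NK marker mean the overlap came from WT 4 (4.99) and KO 1 (7.30). The other WT arrays read 6.42 to 7.13 and the other KO arrays 5.00 to 5.31. Gzma, a granzyme of cytotoxic cells, ran from 3.95 to 9.45 in WT and from 3.70 to 9.40 in KO, with means of 7.42 and 5.06, and Klrd1, a receptor of NK cells, from 4.79 to 7.58 and from 4.31 to 8.47, with means of 6.23 and 5.47. S100a9, an alarmin of neutrophils, ran from 6.86 to 10.01 in WT and from 6.84 to 9.72 in KO, and Lyz2, the lysozyme of myeloid cells, from 6.52 to 9.71 and from 6.41 to 9.91. Jchain, the joining chain of secreted antibody, ran from 13.15 to 13.26 and from 13.02 to 13.29.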
